A study of Mus musculus with 35 samples.

Results

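Genes of cytokine signalling, Jak1, Jak2, Stat3, Stat5a, Stat5b, Stat6, Cish, Socs1, Socs2 and Socs3, were followed through all 35 arrays of a study of mouse hematopoietic stem cells. The 10 genes were taken by name, out of 8251 genes that the array's annotation names alone on a probe set: 14 of its 12422 probe sets are assigned to 1 of the 10 and to no other gene. The study compared side population (SP) cells, which carry Sca-1 but not Gr-1 and lose Hoechst dye through efflux pumps, with CD8 T lymphocytes sorted for CD3 and CD8, all from the bone marrow of C57Bl/6 CD45.1 mice aged 7 to 9 weeks with no treatment named. SP cells came from the lower region of the SP (LSP, samples A, B and M) or from its upper region (USP, samples N, O and Z), and the CD8 samples are B, C and D. Each of these 9 samples is a pool of 4 amplifications of 10 cells, hybridized to 2 arrays. A further 17 arrays measured 12 single SP cells (A to L) and 5 single-cell equivalents (SCE, A to E). The single cells were sorted from the lowest tip of the SP, not from the whole of it. The SCE are aliquots of 1 lysate of 40 SP cells, so that differences among SCE are technical.

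Cytokine receptors of this family have no enzyme of their own. JAK kinases bound to the receptor switch it on when the cytokine arrives, and phosphorylate STAT proteins. The STATs pair, enter the nucleus and bind DNA, in many cases at the motif TTCNNNGAA. CISH and the SOCS proteins are made in response to STATs and turn the signal down at the receptor or the kinase. In blood stem cells this route carries the signals of several cytokines, and in T cells the interleukins that keep them alive.

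This motif is shown for the 2 genes whose promoters held it, because both are brakes of the pathway that STATs switch on. No other spacing between its fixed letters was searched. RefSeq promoter windows of GRCm38.p6, from 250 bases before to 50 bases after the start of transcription, were found for 9 of the 10 genes, and Socs2 had none. TTCNNNGAA, which reads the same on both strands, was present in 8.30% of the 32851 windows in the reference. The fixed letters of the motif stand in capitals in a 70-base stretch of the Cish window, on the plus strand at chr9:107296609-107296678, and of the Socs3 window, on the minus strand at chr11:117969481-117969550.
Cish: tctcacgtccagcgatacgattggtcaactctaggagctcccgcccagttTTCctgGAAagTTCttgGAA
Socs3: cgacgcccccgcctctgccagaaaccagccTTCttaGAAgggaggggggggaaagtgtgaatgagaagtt
Cish held the motif 2 times, at bases 1 to 9 and 12 to 20 counted from the start, and 0.457% of all windows held it 2 times or more. Socs3 held it once, at bases -154 to -146. The windows of Jak1, Jak2, Stat3, Stat5a, Stat5b, Stat6 and Socs1 held no match, which says only that these letters are not in the windows. The windows of Socs3, Stat5a and Stat5b lie wholly within the bounds of their genes, so they do not cover the outer end of the gene.

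The deposited intensities are on a linear scale, and log2 levels are given here. In ten-cell samples a level under 7 (an intensity of 128) was set to 7, called the floor, and duplicate arrays were averaged. Probe sets at or above a log2 level of 9 (an intensity of 512), called detected, numbered 1737 to 2321 on ten-cell arrays, 1194 to 1489 in single cells and 1351 to 1563 in SCE. On 9 of the 12 SP ten-cell arrays 24.6% to 32.1% of the values are negative. No value is negative on 3 SP arrays (1 of LSP sample B, both of USP sample Z) or on the 6 CD8 arrays. Every array with negative values is thus an SP array. For most SP samples this difference between arrays and the difference from CD8 cannot be told apart, and USP sample Z differs in it from USP samples N and O. Of the marker lists, all 6 T-cell genes were called higher in CD8, and 3 of the 4 stem-cell genes with a named probe set (Lmo2, Tal1 and Tie1) were called higher in SP. Summed intensities of the T-cell list were 15000 to 16800 in CD8 samples and 38.1 to 456 in SP samples. In a pool of cells, fewer cells that use a gene and less RNA per cell cannot be told apart.

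Of the 14 probe sets, 11 exceeded the floor somewhere in the ten-cell samples, and these were tested. The 3 others, the second Jak2 probe set, the Stat5b probe set and 1 of the 2 Socs3 probe sets, never exceeded it on the 18 arrays. The Socs1 probe set, the other Socs3 probe set and the second Stat3 probe set passed it only barely, with no sample above 7.15. Socs1 and Socs3 passed it on 1 array alone, the array of LSP sample B with no negative values (intensities of 144 and 140). On the duplicate of that array both were at 10.9. Stat5b lies beside Stat5a and Stat5a beside Stat3 on chromosome 11, and of these neighbours Stat5b was at the floor on every ten-cell array while both Stat5a probe sets were above it on every one. Levels of different probe sets are not on 1 scale, so they give no order of transcript numbers between genes. Jak2 and Stat3 without further mention stand for the first probe set of each gene, the one that was well above the floor.

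None of the 11 probe sets was called in SP against CD8 by limma at an adjusted p under 0.05, where 5.83% of the 6823 tested probe sets were called. At an unadjusted p under 0.05, 5 of the 11 passed, against 18.5% of all. Of these 5, both Stat5a probe sets, Cish and Socs2 were higher in SP and Jak1 was lower. Groups did not overlap for 1 of the 11, against 11.3% of all tested. The median size of the difference was 0.80 over the 11 and 0.49 over all tested, and the signed medians were both 0.04. A probe set that is above the floor in 1 population alone had to differ to be tested, so these shares describe the tested members and not all 14.

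**Figure D1:**
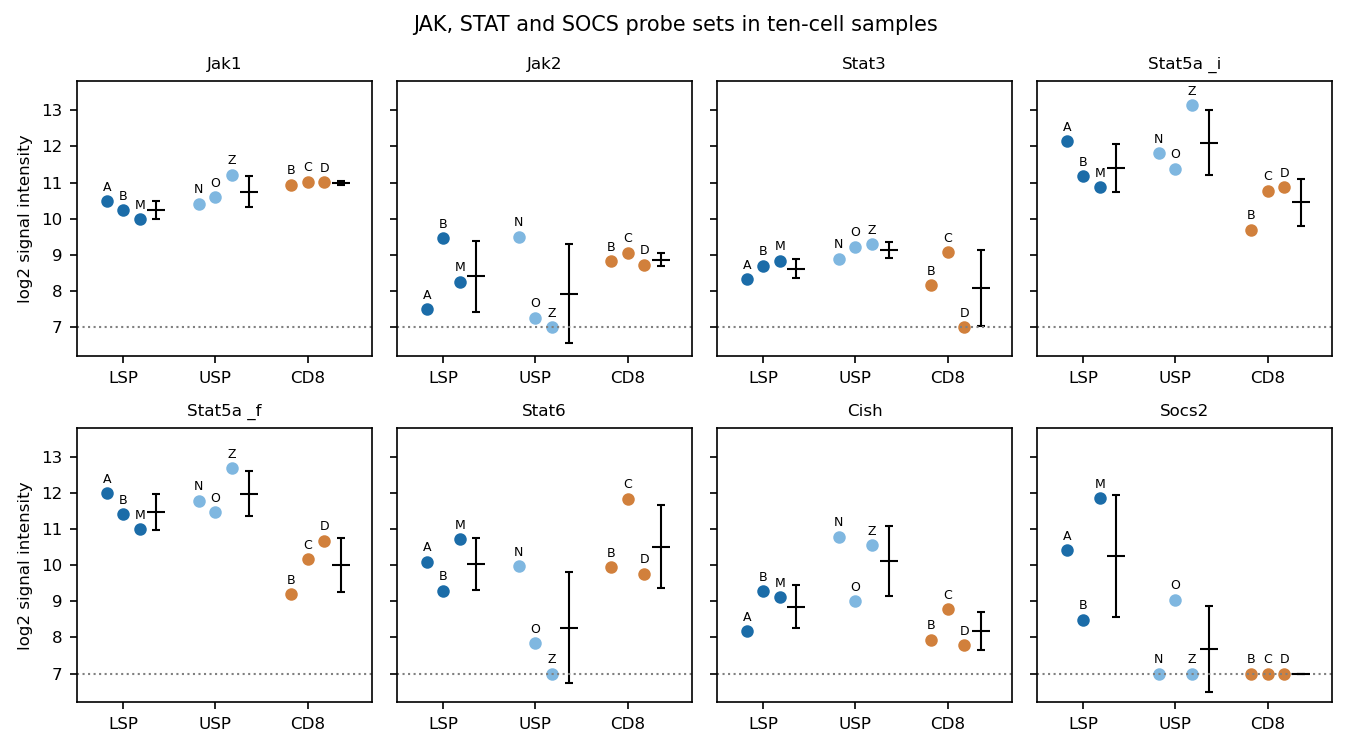
Log2 signal intensity (vertical axis) of 8 probe sets in the ten-cell samples. Each lettered point is 1 sample, the mean of 2 arrays; the black marks are the mean and SD of 3 samples, and the dotted line is the floor of 7. Both Stat5a probe sets reached their highest level in USP sample Z, and Socs2 was above the floor in 3 LSP samples, 1 USP sample and no CD8 sample.

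JAK1 is used by receptors of interferons and of many interleukins, and its transcript was above the detection level in every ten-cell sample. Jak1 stood at 10.49, 10.24 and 9.99 in LSP samples A, B and M, at 10.41, 10.60 and 11.22 in USP samples N, O and Z, and at 10.94, 11.03 and 11.01 in CD8 samples B, C and D. Only USP sample Z lay above the CD8 samples. The log2 difference, SP minus CD8, was -0.50 (SE 0.20, 95% interval -0.98 to -0.03), or 1.42-fold lower, with an adjusted p of 0.237.

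JAK2 serves the receptors of erythropoietin and growth hormone. The first Jak2 probe set was at 7.50, 9.46 and 8.25 in LSP samples, at 9.50 and 7.26 in USP samples N and O, at the floor in Z and at 8.83, 9.06 and 8.73 in CD8 samples. The 6 SP samples spread from the floor to above every CD8 sample, and the 3 CD8 samples stayed within a narrow range. The difference between SP and CD8 was -0.71 (SE 0.65, adjusted p = 0.647, limma).

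STAT5 carries signals of interleukins 2 and 7, and 2 probe sets measure Stat5a. The probe set with the name ending in _i_at gave 12.15, 11.17 and 10.88 in LSP, 11.81, 11.38 and 13.14 in USP and 9.69, 10.77 and 10.88 in CD8. The probe set ending in _f_at, a suffix that marks a design that similar family members can share, gave 11.99, 11.42 and 11.00 in LSP, 11.79, 11.46 and 12.69 in USP and 9.20, 10.16 and 10.68 in CD8. By the _f probe set every SP sample was above every CD8 sample, while by the _i probe set LSP sample M and CD8 sample D met at 10.88.

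By the _f probe set the SP mean was 11.72 ± 0.58 (SD, n = 6) and the CD8 mean 10.01 ± 0.75 (SD, n = 3), a 3.28-fold difference (log2 1.71, SE 0.42, 95% interval 0.71 to 2.72). Its adjusted p was 0.0704, the lowest of the members and short of the threshold. By the _i probe set the difference was 1.31 (SE 0.50, adjusted p = 0.22). In a fit of the 18 arrays with the pool as a random block, as in the methods of the study, both passed, with adjusted p of 0.0133 and 0.0328 for the same differences, and without CD8 sample B the difference by the _f probe set was 1.31.

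STAT3 answers interleukin 6 and granulocyte colony-stimulating factor. Stat3 stood at 8.32, 8.70 and 8.84 in LSP, at 8.89, 9.22 and 9.30 in USP and at 8.16, 9.08 and the floor in CD8. All LSP samples were below all USP samples, with a mean difference of -0.52 (LSP minus USP, SE 0.49, adjusted p = 0.876, limma) and with the CD8 samples ranging from the floor to 9.08. STAT6 answers interleukins 4 and 13. Stat6 stood at 10.10, 9.29 and 10.72 in LSP, at 9.98, 7.84 and the floor in USP and at 9.94, 11.84 and 9.76 in CD8. CD8 sample C was the highest and USP sample Z was at the floor, and the difference between SP and CD8 was -1.36 (SE 0.78, adjusted p = 0.457, limma), or -0.69 without CD8 sample C.

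CISH binds activated receptors and blocks the docking of STAT5. Cish was at 8.17, 9.28 and 9.11 in LSP, at 10.79, 9.0 and 10.55 in USP and at 7.94, 8.78 and 7.79 in CD8. Every CD8 sample lay below USP sample O and LSP samples B and M, and LSP sample A lay within the CD8 range. The difference between SP and CD8 was 1.31 (SE 0.48, 2.48-fold, adjusted p = 0.201, limma). Duplicate arrays were far apart for Cish in CD8 sample C, by 1.39, and in LSP sample B, by 1.20, while the median gap between duplicates was 0.18 over 48 pairs of member probe sets that were detected.

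SOCS2 restrains growth hormone and related signals, and Socs2 had the widest range of the members between SP samples. Socs2 stood at 10.41, 8.49 and 11.85 in LSP samples A, B and M and at 9.04 in USP sample O, while USP samples N and Z and all CD8 samples were at the floor. USP sample O lay between LSP samples B and A. The SP mean, with USP samples N and Z set to the floor, was 3.90-fold above the CD8 floor (log2 1.96, SE 0.78, adjusted p = 0.239, limma). Because both SP and CD8 have samples at the floor, this fold is neither a lower nor an upper limit. On the arrays with positive values alone, LSP sample B and USP sample Z stood for all of SP and the difference was 0.67.

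None of the 11 probe sets was called in LSP against USP either, where 0.103% of all tested were called. At an unadjusted p under 0.05, 1 of the 11 passed, against 5.99% of all. Groups did not overlap for 1 of the 11, Stat3, against 5.98% of all tested. The probe set that passed was Socs2, with an LSP mean of 10.25 ± 1.69 (SD, n = 3) and a USP mean of 7.68 ± 1.18 (SD, n = 3), 5.93-fold higher in LSP with 2 USP samples at the floor (log2 2.57, SE 0.90, 95% interval 0.43 to 4.71). Its adjusted p was 0.729 by limma, and the difference was 1.77 without LSP sample M and 3.45 without LSP sample B.

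Other members had differences of either sign between LSP and USP. Stat6 was 1.76 higher in LSP (SE 0.90, adjusted p = 0.876), 1.12 without USP sample Z and 2.62 without USP sample N. The Cish difference, LSP minus USP, was -1.26 (SE 0.56, adjusted p = 0.84, limma) and -1.81 without USP sample O. Jak2 was 0.48 higher in LSP (SE 0.75), a difference that turned to -0.05 without LSP sample B. The differences were -0.71 and -0.51 for the 2 probe sets of Stat5a, -0.52 for Stat3 and -0.51 for Jak1, each with an interval that reached 0.

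**Figure D2:**
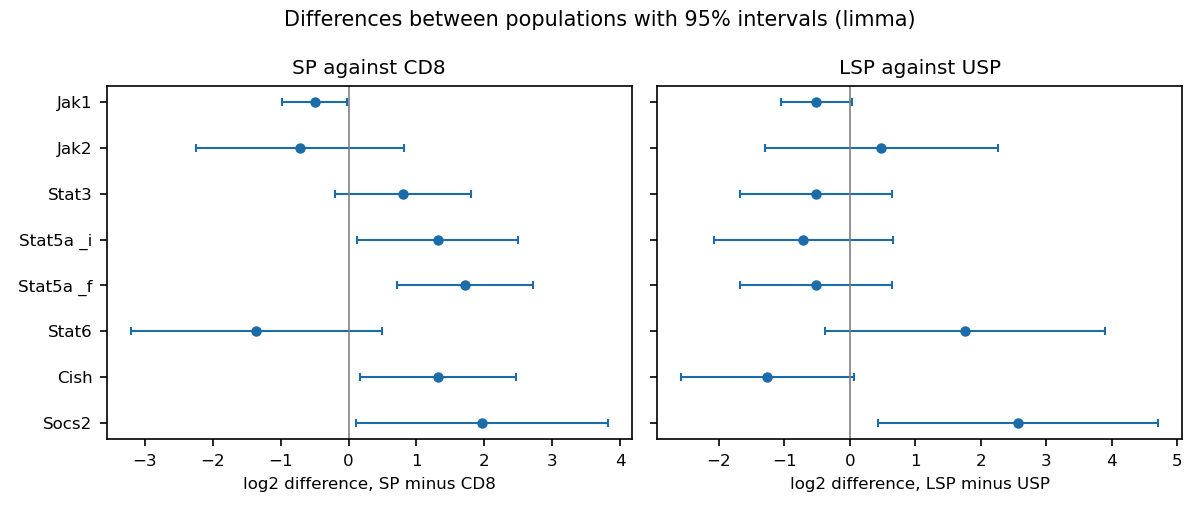
Log2 differences (horizontal axes) of 8 probe sets between SP and CD8 (left) and between LSP and USP (right). Points are limma estimates and bars their 95% intervals before any adjustment. The interval reached 0 on the right for all probe sets shown except Socs2.

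Markers of other blood cells moved between the same samples. The summed intensity of 7 granulocyte and monocyte probe sets was 4310 to 6460 in USP, 1170 to 3710 in LSP and 167 to 547 in CD8. S100a8, a granulocyte calcium-binding protein, was the 1 gene called of the 4 tested on that list (3.77 higher in SP, adjusted p = 0.00572, limma), whereas Mpo and Elane, which define granulocyte precursors, were at the floor on all ten-cell arrays. The summed intensity of 3 erythroid probe sets was 1750 to 2540 in USP, 86.8 to 430 in LSP and 66.3 to 2230 in CD8, and its hemoglobin gene Hba-a1 had a difference, LSP minus USP, of -3.08 (adjusted p = 0.716, limma). In CD8 samples the B-cell list ranged from 154 to 8980. The summed intensity of 2 natural killer (NK) cell probe sets was 798 to 982 in CD8 and 19.4 to 55.9 in SP. Klrd1, a receptor chain of NK cells that CD8 T cells can also carry, was called higher in CD8 (at least 6.84-fold, adjusted p = 3.23e-06, limma), whereas Ncr1, which defines NK cells, was at the floor in all ten-cell samples. The part of such cells in the member values was not tested.

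The 3 other probe sets whose levels ran most like Socs2 over the 9 ten-cell samples were Prkd2 (Pearson r = 0.966), Dock9 (r = 0.963) and Dmd (r = 0.961). Socs2 was at the floor in 5 of these 9 samples, so the likeness rests mostly on the other 4, LSP samples A, B and M and USP sample O. The 3 were picked as the highest r among all tested probe sets with a gene name, a search that favours high values.

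Around these members a list of 71 other genes of the route was examined, of which 57 had a probe set of their own name and 43 were tested. In SP against CD8, 2 of the 43 were called, where 5.83% of all tested probe sets were called, and in LSP against USP 0 were called, where 0.103% of all were. The median difference was 0.03 over the 43 genes, against 0.04 over all tested probe sets.

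Il7r, the interleukin 7 receptor of lymphocytes, was at the floor in all 6 SP samples and at 12.23 ± 0.25 in CD8 (SD, n = 3). It was thus at least 37.5-fold higher in CD8 (adjusted p = 1.1e-06, limma). Il7r was the 1 receptor called of 16 tested. Il6st, the shared gp130 chain of the interleukin 6 family, had a difference, SP minus CD8, of -2.25 (adjusted p = 0.166) by the probe set with the larger difference. The other Il6st probe set was at 0.54 (adjusted p = 0.736, limma). It was at the floor in all CD8 samples and in 5 of the 6 SP samples, so its sign rests on 1 LSP sample. Il27ra was at the floor in all SP samples and in 1 of the 3 CD8 samples. Its CD8 mean was 9.18 ± 1.90 (SD, n = 3), and it was not called (adjusted p = 0.16, limma).

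Pim1, a survival kinase that STAT5 is known to induce, was the 1 target called of 12 tested. It stood at 8.60 ± 1.10 in LSP and 10.17 ± 0.34 in USP (SD, n = 3 each) and at the floor in all CD8 samples, so that it was at least 5.21-fold higher in SP (adjusted p = 0.0268, limma). The probe set that was called was detected in 0 of 12 single cells and 0 of 5 SCE. A second Pim1 probe set was at the floor in all 9 samples. The adjusted p exceeded 0.05 without any one of the 3 CD8 samples (0.0891 to 0.0934), without USP sample N or O (0.0576 and 0.0573) and with no filter on low values (0.0805). For SP minus CD8, Ccnd3 was at -1.09 and Irf1 at 0.82, neither called.

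Of the 2 kinases tested, 0 were called, with Jak3 at 1.05 (SE 1.40) and Tyk2 at 0.05 for SP minus CD8. Stat4 and Socs5 had differences of -0.23 and 0.42. Among 11 other brakes 0 were called, and the largest differences were those of the adaptor Sh2b1 (1.55, adjusted p = 0.0824), the phosphatase Ptpn1 (-0.94) and the phosphatase Ptpn6 (0.76). The 14 genes of the list with no probe set of their own name were not analysed here.

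**Figure D3:**
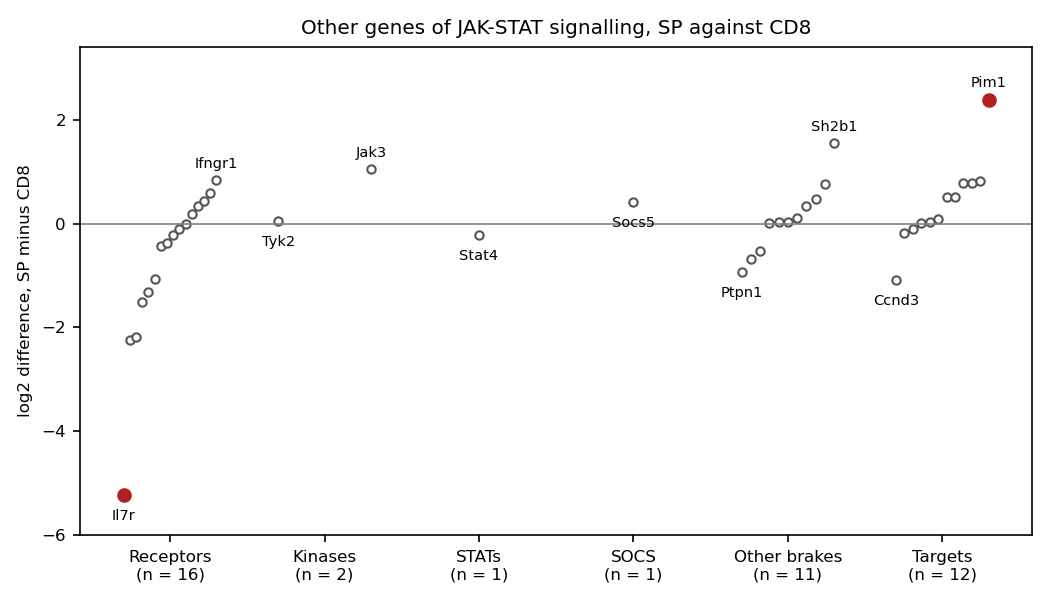
Log2 difference between SP and CD8 (vertical axis) of the 43 tested genes of the list, by role (horizontal axis). Each point is the probe set of a gene with the largest difference; filled points were called at an adjusted p under 0.05 by limma and open points were not. Il7r lies at -5.23 and Pim1 at 2.38.

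In single SP cells the members ranged from detection in 9 of 12 cells to detection in none. Cish was detected in 9 of 12 cells and 4 of 5 SCE, and Stat5a in 8 of 12 cells by the _f probe set and in 6 by the _i probe set, with 3 of 5 SCE by either. Stat3 was detected in 6 cells and 0 SCE, of which SCE C was nearest, just under the level, Stat6 in 6 cells and 2 SCE and Jak1 in 5 cells and 2 SCE. Socs2 was detected in 3 cells and 4 SCE and Jak2 in 2 cells and 1 SCE. Socs1, Stat5b, both Socs3 probe sets and the second Stat3 probe set were detected in 0 of 12 cells and 0 of 5 SCE. These counts turn on the level: at a level of 10, Cish was detected in 4 cells and Stat3 in 2, and at a level of 8, Jak2 was detected in 5 cells and Socs1 and the second Stat3 probe set in 2 each. All cells and SCE had 2 to 5 of the 10 genes detected.

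**Figure D4:**
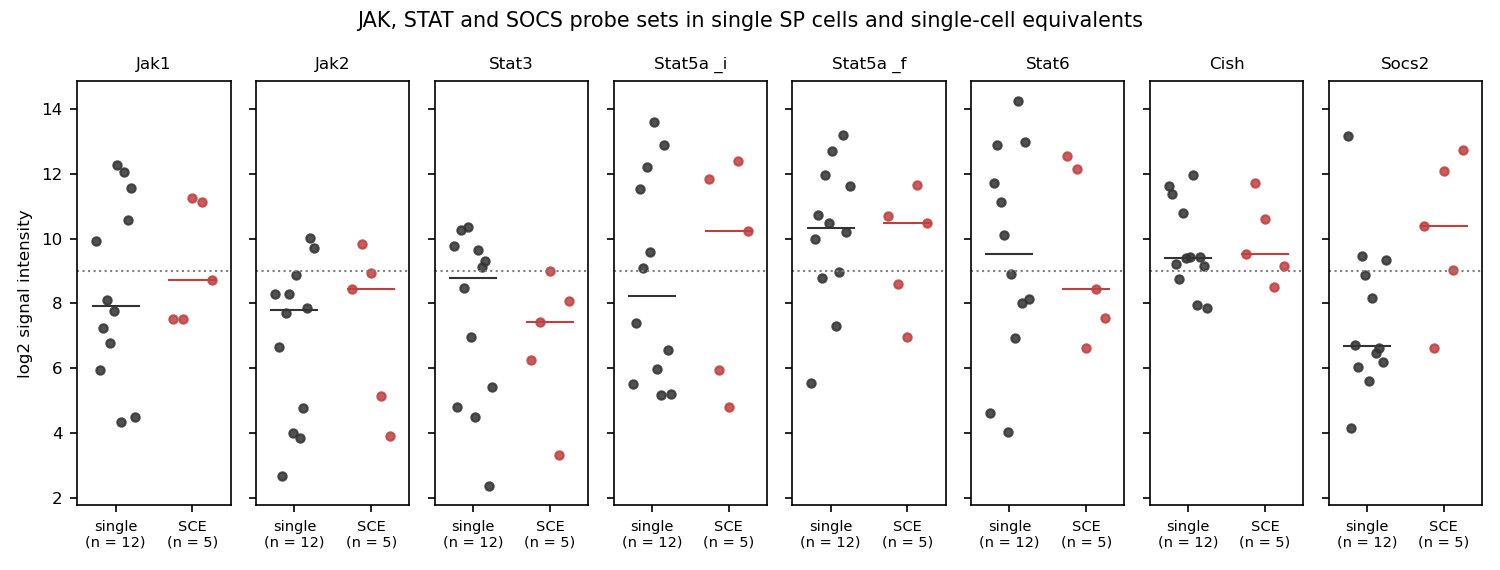
Log2 signal intensity (vertical axis) of 8 probe sets in 12 single SP cells (black) and 5 SCE (red). Each point is 1 array, short lines are group medians and the dotted line is the detection level of 9. Cish had the narrowest range in single cells of the 8 probe sets and Stat6 the widest, with cells far above and far below the line.

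Jak1 ran from 4.34 to 12.26 over the single cells. It was at 12.26, 12.06, 11.57, 10.56 and 9.93 in cells G, I, K, J and A, and at 8.10 or less in the 7 others, down to 4.34 in cell H. The 5 SCE stood at 11.25 and 11.12 in C and D and at 7.51, 7.51 and 8.72 in A, B and E. Stat6 ran from 4.05 in cell F to 14.25 in cell I. Cells I, K, C, B, D and E had Stat6 at 14.25, 12.97, 12.90, 11.70, 11.13 and 10.12, and SCE A and B at 12.56 and 12.15 stood above the other SCE at 6.63 to 8.45.

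The 2 Stat5a probe sets detected the gene together in 5 cells (C, E, F, G and J), and neither did in 3 (A, H and I). The _f probe set alone detected it in cells B, K and L, with 9.99, 10.21 and 11.61 against 7.39, 6.57 and 5.22 by the _i probe set. The _i probe set alone did so in cell D, with 9.09 against 8.77. The highest cell by the _i probe set was G at 13.58 and the highest by the _f probe set was J at 13.19. Cish was above 7.8 in every cell, from 7.86 in cell L to 11.95 in cell H, with cells A, B and E at 11.63, 11.37 and 10.79.

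Socs2 was at 13.17 in cell A, at 9.45 in cell E and at 9.35 in cell L, and at 4.17 to 8.88 in the others. Its SCE stood at 10.40, 6.64, 12.07, 9.02 and 12.72 in A to E, so that 3 of 5 SCE exceeded all cells but A. Stat3 was highest in cells E, C, A, H, J and I, at 10.35, 10.25, 9.77, 9.64, 9.31 and 9.12, and lowest in cell K at 2.38. Jak2 was detected in cells K and L, at 10.01 and 9.70, and in SCE B at 9.83. Cells E and K had the most member genes detected, 5 each: Stat3, Stat5a, Stat6, Cish and Socs2 in E, and Jak1, Jak2, Stat5a, Stat6 and Cish in K. Cell K also had the most probe sets detected in all, 1489.

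No member was called for a difference between single cells and SCE, in level or in spread. Of the 9 member probe sets that were detected on at least 1 of the 17 arrays, 0 were called for the mean level, where 0.0429% of the 4659 tested were called by limma, and 1 passed an unadjusted p under 0.05, against 5.69% of all. That 1 was Socs2, with a difference, single cells minus SCE, of -2.60 (SE 1.20, 95% interval -5.12 to -0.07, adjusted p = 0.864, limma). The intervals of the others ran across 0, and that of the _i probe set of Stat5a, from -3.65 to 3.01, was the widest, so that differences of several fold were not detectable with 12 cells and 5 SCE. All 5 SCE come from 1 lysate, so none of these intervals, that of Socs2 included, holds any spread between lysates.

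A 1-sided permutation test over all splits asked for a larger spread in single cells. It called 0 of the 9, against 0.515% of all, and 0 passed an unadjusted p under 0.05, against 11.3% of all. The lowest adjusted p was 0.555, for Jak1 (SD 2.82 in cells and 1.86 in SCE). The SD was larger in single cells for 5 of the 9 members and for 62.6% of all tested probe sets. Its median over the 9 was 2.47 in cells and 2.45 in SCE, against 1.98 and 1.63 over all tested. The widest in cells was Stat6, with an SD of 3.28 against 2.72 in SCE. The widest in SCE was the _i probe set of Stat5a, with 3.46 against 3.17 in cells. Cish was the narrowest in SCE, with 1.26 against 1.38 in cells. In the second Jak2 probe set the SD was 1.27 in cells and 2.74 in SCE, where SCE C alone was detected. Of the list of other genes, 27 were tested here with 31 probe sets, and 0 were called for the level or the spread.

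**Figure D5:**
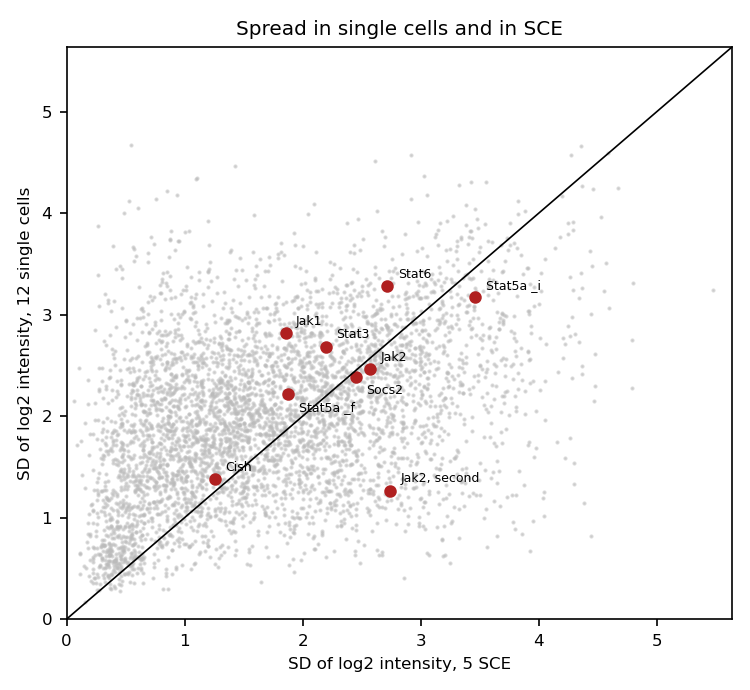
SD of the log2 intensity in 12 single cells (vertical axis) against that in 5 SCE (horizontal axis) for the 4659 tested probe sets (grey) and the 9 member probe sets (red); the line marks equal SD. The members lie on both sides of the line, with the second Jak2 probe set below it and Jak1 and Stat6 above it.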

How the data were processed

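The authors deposited 1 table of linear signal intensities from Affymetrix MG-U74Av2 arrays, not the logged RMA levels of their methods. Transcript ends had been amplified by global single-cell RT-PCR before hybridization, and marrow of 1 mouse served each sort. Each array has a mean of 250 after 2% of its values are trimmed at each end, and while the methods name Affymetrix Microarray Suite for the probe intensities and RMA for the levels, which program made each deposited value is not given in the sources used here. Of 12488 probe sets 66 controls were left out. A gene was named only where the array's annotation gives 1 gene, for 10833 probe sets.

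Intensities were logged to base 2. In pools, 7 served as the lowest level (the floor). Single cells and SCE hold positive values and needed no floor, and 9 was the detection level. The floor and the detection level were taken from an earlier analysis of these data, and the members, gene lists and rule for named genes were chosen with its results known. Named genes are all members, the called genes of the list and up to 3 per role with the largest difference between SP and CD8. The test plan assumed log2 values, so it was run on the log2 of the intensities.

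The model of limma 3.58.1 (R 4.3.3) had a mean for each population, on averaged duplicates of all probe sets that exceeded the floor on any pool's array. Nothing in the labels says that samples are separate mice, so p-values measure the spread between these samples, which may be partly technical; the number of arrays limits the precision. Single cells and SCE were compared by limma and, for spread, by a permutation test, exact over the 6188 splits of 17 arrays and 1-sided. Adjusted p-values follow Benjamini-Hochberg over all probe sets tested. The methods were tested on simulated data. Python 3.11.15, numpy 2.4.6, pandas 2.3.3, scipy 1.17.1 and matplotlib 3.10.9 were used.

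Alternatives were a floor of 6 or 8, other filters, quantile normalization, arrays with the pool as a random block, the array number as a replicate block, leaving out each sample, and arrays with positive values alone. In single cells the alternatives were a floor of 7 or 9, deviation from the mean, and detection levels of 8 and 10.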

Additional observations from a re-analysis of the deposited data

Results flagged for a closer look

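In 1 of the 14 member probe sets, SCE C stood apart from the other SCE. The second Jak2 probe set was at a log2 level of 12.53 in SCE C, and at 5.94 to 6.78 in the other 4 SCE. The gap to the nearest SCE was 0.873 of the whole range, above the critical value of 0.71 of Dixon's test for 5 values. Chance alone marks about 1 in 20 groups. The first Jak2 probe set was at 8.94 in SCE C and at 3.92 to 9.83 in the others. The second Jak2 probe set was at the floor in all ten-cell samples and was not detected in any of the 12 single cells, the highest being cell D at 7.67. The cause was not tested.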

How the results depend on the processing

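Of 180 alternative values for members in SP against CD8 and 191 in LSP against USP, 1 turned its direction, the Jak2 difference between LSP and USP, which ran from -0.05 (without LSP sample B) to 1.27 when a sample was left out. No alternative lost a call, since none was made. In SP against CD8, 0 member probe sets were called, and 2 with the pool as a random block (both Stat5a probe sets, 661 of all), 2 with the array number as a replicate block (both Stat5a, 639 of all), 1 with the stricter filter (the Stat5a _f probe set, adjusted p = 0.0498) and 2 on arrays with positive values alone (Jak1 and Socs2, 1606 of all). With no filter 214 of all were called, and leaving out a sample gave 254 to 417. In LSP against USP, the 7 calls over all became 0 with LSP and USP fitted alone, 1 with the stricter filter, 31 with the random block, 27 with the replicate block and 1196 on arrays with positive values alone, where 5 members were called, and 0 to 31 when a sample was left out. On these arrays LSP and USP are 1 sample each, assumed to vary like CD8, so those calls rest on no spread within SP. In the 2 fits of 18 arrays the pool is a random term, with a correlation of duplicates of 0.918; no label pairs samples across populations.

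For single cells against SCE, a floor of 7 or 9 moved the calls over all from 2 to 8 or 12 for the level, and from 24 to 82 or 39 for the spread; the deviation from the mean gave 154. Leaving out an SCE gave 1 to 5 and 0 to 51. Among members only Stat3 was called, for spread at a floor of 9, where SCE were all at that floor (1 member). Level differences (single cells minus SCE) turned to 0.07 for Jak1 with a floor of 9 and to 0.04 for Cish with quantile normalization. When an SCE was left out they ran across 0 from -1.20 to 0.28 for Jak2, -0.12 to 1.30 for Stat3, -1.38 to 0.52 for the Stat5a _i probe set, -0.23 to 0.94 for its _f probe set, -0.70 to 0.78 for Stat6 and -0.51 to 0.29 for Cish. Spread differences turned to -0.09, -0.09 and -0.02 for Jak2 with the deviation from the mean and floors of 7 and 9, to -0.18 for the Stat5a _i probe set with the deviation from the mean, and to -0.01 for it and for Cish with a floor of 9. When an SCE was left out they ran from -0.48 to 0.66 for Jak2, -0.62 to 0.74 for the Stat5a _i probe set, -0.04 to 0.83 for its _f probe set, -0.13 to 0.41 for Cish and -0.56 to 0.38 for Socs2. A detection level of 10 moved the 45 detections over member probe sets and cells to 29. Cish went from 9 cells to 4 and Stat3 from 6 to 2, and a level of 8 gave 62 detections. The cause was not tested.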
